A study of Mus musculus with 6 samples.

Results

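A set of 10 genes of apoptotic cell uptake were followed in cultured mouse microglia, the resident macrophages of the brain. They were the TAM receptors Tyro3, Axl and Mertk, the TAM ligands Gas6 and Pros1, the bridging protein Mfge8, the uptake receptors Timd4, Stab1 and Megf10, and the adaptor Elmo1. Members were the rows of the count and FPKM tables with these symbols, which gave 10 of 41079 listed genes. FPKM scales fragments by gene length and by library size. RNA was sequenced from 3 control and 3 optimized cultures. All 6 came from C57Bl/6N mice of 1 to 3 days of age, whose brain cells were grown as mixed flasks, fed with conditioned medium of L-929 cells (a mouse fibroblast line that releases the growth factor M-CSF) and harvested by shaking. By the study's methods the flasks were kept in medium with serum for weeks, and the harvest day of these libraries is not named. Cells also settled in the wells in medium with serum before it was replaced. Control cells were then held in serum-free DMEM/F12. Optimized cells received human TGF-β1, human IL-34 and human CX3CL1 at 100 ng/mL each in the same medium, with cholesterol and insulin-transferrin-selenium, on collagen IV. The labels name the cytokines alone, and the other supplements, the coating and the lack of serum are taken from the study's own account of its sequencing. The supplements were given together, so the share of any single one cannot be told apart. Each flask held cells pooled from several brains, and for the time in these media the study's methods give a range of days for all stimulations, with none named for these libraries.

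Efferocytosis is the uptake of dying cells. A dying cell shows phosphatidylserine on its outer surface, where receptors such as TIM-4 (the product of Timd4) and stabilin-1 (Stab1) bind it directly. Other receptors need a bridge. GAS6 and protein S (Pros1) join phosphatidylserine to the TAM receptor tyrosine kinases, and MFG-E8 (Mfge8) joins it to αv integrins. ELMO1 works with a DOCK protein to activate Rac, which reshapes actin around the cargo. In the brain, microglia carry AXL and MERTK, and MEGF10 is best known as an engulfment receptor of astrocytes.

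Libraries held 20628148 to 27261839 counts. Values are given as CPM, the count scaled by the library total after TMM, an adjustment for differences in composition between libraries, except where FPKM is named. The summed CPM of 12 microglial markers ran from 6546 to 6658 in control and from 12729 to 15327 in optimized libraries. Of the 12, 10 were higher in every optimized library, and Aif1 and Csf1r were lower in every one. How many of all tested genes part the groups in this way was not counted. Summed border-associated macrophage markers were at 505 to 554 in control and 290 to 404 in optimized libraries, astrocyte markers at 40.2 to 42.3 and 29.9 to 34.9, and neuron markers at 3.07 to 4.72 and 5.30 to 6.34. Oligodendrocyte markers were at 137 to 154 in control and 167 to 205 in optimized libraries, and monocyte markers at 2.97 to 4.94 and 3.53 to 7.29, with Chil3 at 0 throughout. Fibroblast markers were at 35.3 to 49.5 in control libraries and at 49.5, 31.3 and 153 in optimized replicates 1, 2 and 3, so replicate 3 stood apart. Endothelial markers were at 81.6 to 97.1 in control and 274 to 352 in optimized libraries, nearly all from Flt1, while Cldn5 had 2 counts in 1 optimized library and 0 in the other 5.

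All 10 genes passed the filter on low counts and were tested among 14618 genes. Axl, Mertk and Mfge8 were higher in optimized than in control cultures, Gas6 and Timd4 were lower, and the other 5 did not pass an adjusted p of 0.05. Of all tested genes, 14.7% were called higher and 15.2% lower, against 3 and 2 of these 10. The 10 genes were chosen with earlier results of these data known, so these counts are no test of the set. The median log2 fold change of the 10 genes was 0.37, and that of all tested genes was 0.0079. In bulk RNA, fewer cells that make a transcript and less transcript per cell cannot be told apart. The study's methods call the replicates biological, but the labels do not tie cultures to animals or flasks. The p-values set the difference between groups against the spread within groups among these 6 samples.

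**Figure D1:**
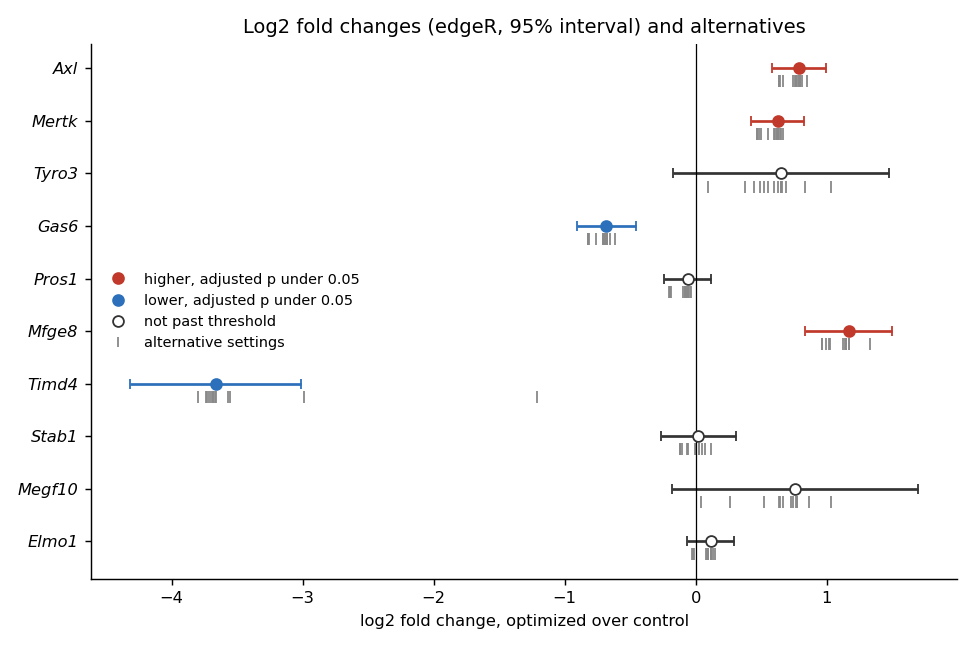
Log2 fold change of each of the 10 genes, optimized over control, with its 95% interval (x axis) from the fit over all tested genes, 3 libraries a group. Grey ticks are the values under the alternative settings. Axl, Mertk and Mfge8 lie wholly above 0 and Gas6 and Timd4 wholly below it, with Timd4 far from the rest at -3.66 and its farthest tick at -1.21, from log2(FPKM + 1).

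Of the TAM receptors, Axl and Mertk rose and Tyro3 was barely present. Axl (chr7:25456535-25488329, minus strand, GRCm39) encodes the receptor that binds GAS6 but not protein S. It was at 209, 199.9 and 194 CPM in control replicates 1 to 3 and at 359, 313 and 369 CPM in the optimized ones. The lowest optimized library was well above the highest control library. Mean Axl went from 201 ± 7.25 to 347 ± 29.9 CPM (mean ± SD, n = 3 each). The log2 fold change was 0.79 (SE 0.091), or 1.73-fold, with an edgeR adjusted p of 0.00012.

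Mertk (chr2:128540729-128645080, plus strand) encodes the TAM receptor that takes both ligands and is tied to the clearance of dying cells by macrophages. Control libraries held 217, 212 and 205 CPM of Mertk and optimized libraries 359.5, 305 and 315 CPM. The groups did not overlap here either, and optimized replicate 1 was the highest. The mean moved from 212 ± 6.04 to 326 ± 29.2 CPM, a log2 fold change of 0.63 (SE 0.090) or 1.54-fold, at an edgeR adjusted p of 0.00051. The exons of Mertk share 145 bases with Gm39931 on the other strand, a gene of 22 to 51 counts per library, and whether counting used strand is not stated.

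Tyro3 (chr2:119628214-119648738, plus strand), the TAM receptor best known from neurons, was read only 14, 19 and 36 times in control replicates 1 to 3 and 22, 40 and 32 times in the optimized ones. Control replicate 3 was above optimized replicates 1 and 3 in counts, and the groups overlapped. Mean CPM of Tyro3 was 0.902 ± 0.370 and 1.43 ± 0.346, and the log2 fold change of 0.65 had an interval from -0.17 to 1.47 (edgeR adjusted p 0.22). That interval held both 0 and the value of Axl, so a change was not detectable at this depth.

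**Figure D2:**
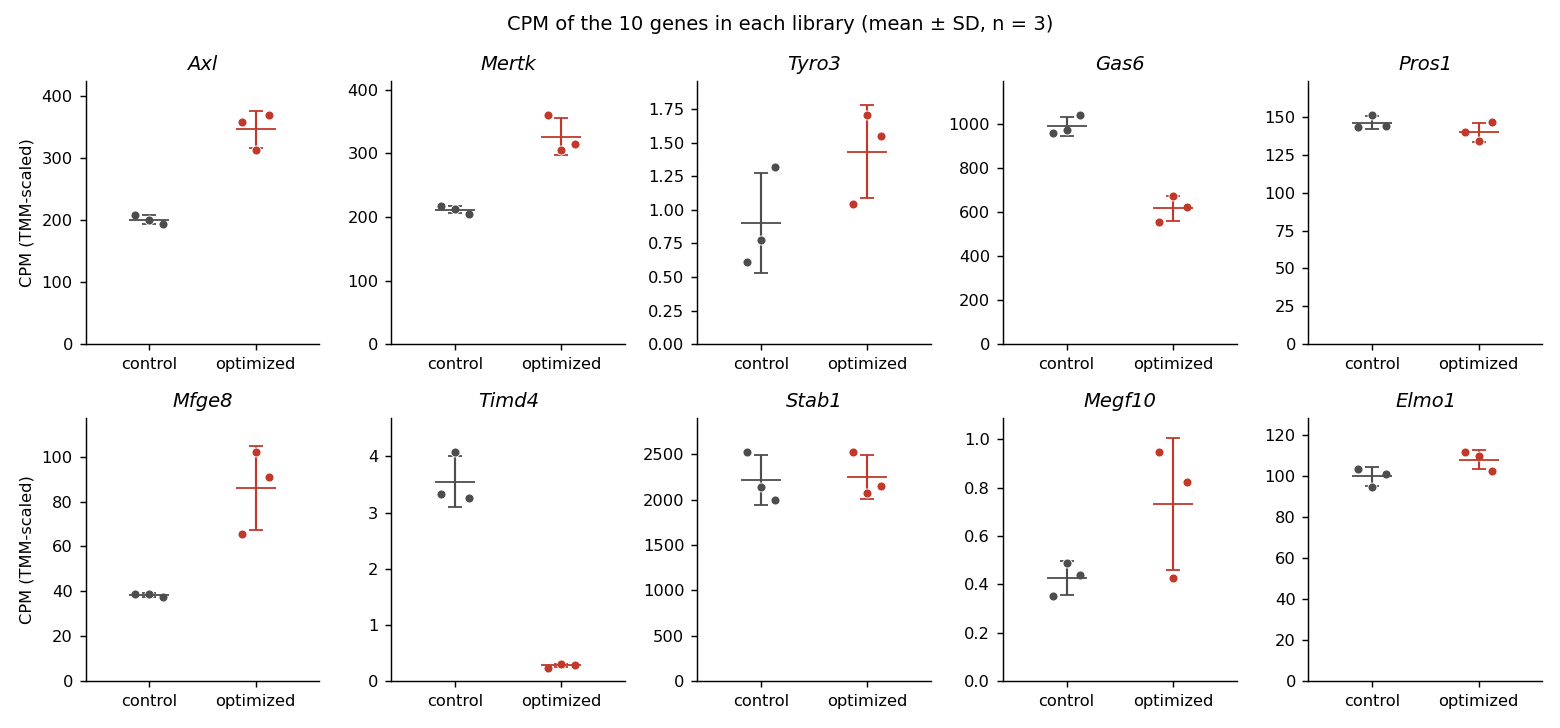
CPM of the 10 genes in each library (linear y axis from 0, 1 panel per gene), with a point per replicate and bars at the mean ± SD of 3 libraries. Axl, Mertk and Mfge8 are higher and Gas6 and Timd4 lower in every optimized library, whereas Tyro3, Pros1, Stab1, Megf10 and Elmo1 overlap.

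The TAM ligands parted. Gas6 (chr8:13515371-13544824, minus strand), the vitamin K-dependent ligand of all TAM receptors, was at 957, 969 and 1037 CPM in control libraries and at 556, 670 and 620 CPM in optimized libraries. Every optimized library was far below every control library. Mean Gas6 fell from 988 ± 43.1 to 615 ± 57.3 CPM, a log2 fold change of -0.68 (SE 0.10), which is 1.61-fold lower (edgeR adjusted p 0.00058). Gas6 shares 154 exon bases, 2.80% of its exons, with Tmem255b on the other strand, which had 2178 to 5137 counts per library. The interval of the Gas6 log2 fold change ran from -0.91 to -0.46.

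Pros1 (chr16:62674275-62749710, plus strand), which encodes protein S, the blood anticoagulant that also serves Mertk and Tyro3, was at 143, 151 and 144 CPM in control and 140, 134 and 146 CPM in optimized libraries. Optimized replicate 3 lay inside the control range. Its log2 fold change was -0.06, with an interval from -0.24 to 0.12 and an edgeR adjusted p of 0.62, so a change of the size of Gas6 lay outside the interval. By FPKM, which carries no TMM scaling, all 3 optimized libraries were below the control ones, at 38.8 ± 3.07 against 44.5 ± 2.49.

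Mfge8 showed the steepest rise of the 10 genes. Its product, milk fat globule-EGF factor 8, is a secreted bridge between phosphatidylserine and the integrins αvβ3 and αvβ5. Mfge8 (chr7:78783515-78798825, minus strand) was at 38.9, 39.0 and 37.3 CPM in control libraries and at 65.4, 102 and 91.0 CPM in optimized libraries. The control libraries were nearly level, while the optimized libraries spread widely, with replicate 1 the lowest of them. Mean CPM rose from 38.4 ± 0.92 to 86.2 ± 18.8, a log2 fold change of 1.17 (SE 0.15), or 2.24-fold (edgeR adjusted p 0.00021). Without optimized replicate 3, the library with high fibroblast markers, Mfge8 was at 1.13 and Gas6 at -0.69 on the log2 scale, and both stayed past the threshold.

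Timd4 fell furthest. TIM-4 is a phosphatidylserine receptor of long-lived tissue macrophages that tethers dying cells. Timd4 (chr11:46701620-46735177, plus strand) had 76, 100 and 89 counts in control libraries and 5, 7 and 6 counts in optimized libraries. It was a low transcript in control cultures, and each optimized library held only a few reads of it. Mean CPM went from 3.55 ± 0.456 to 0.275 ± 0.0334, a log2 fold change of -3.66 (SE 0.29), or 12.7-fold lower (edgeR adjusted p 9.5e-06). The interval ran from -4.31 to -3.01. Of the border-associated macrophage markers, Mrc1 moved the same way, from a mean of 330 to 62.7 CPM, and Cd163 went from 4, 7 and 8 counts to 0, 0 and 1. F13a1 and Pf4 moved the other way, from means of 6.14 to 18.6 CPM and of 157 to 227 CPM. Lyve1, at 0 to 4 counts in control libraries, had 3 to 11 in optimized ones. Of the 9 markers of that list, 3 were lower and 2 higher in every optimized library, and the share of all tested genes that part in this way was not counted. The role of these markers in the fall of Timd4 was not tested.

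The sequence before the first annotated exon is shown for Mfge8 and Timd4, so that the letters behind these genes can be read beside their values. Among the called genes, only these had a stretch of at least 100 bases before an annotated exon. Axl had 79 bases, and Mertk and Gas6 had none. Mfge8 and Timd4 are also the called genes with the largest rise and the largest fall. Of the 10 genes, 9 had a start site in the RefSeq promoter table, and these stretches were located in GRCm39 by an exact match. Both are printed 5′ to 3′ on the strand of the gene, with motif matches in capitals. The motifs searched on both strands were the SMAD box CAGAC, the GC box GGGCGG and the TATA box TATAAA.
Mfge8, 233 bases, chr7:78798826-78799058, minus strand: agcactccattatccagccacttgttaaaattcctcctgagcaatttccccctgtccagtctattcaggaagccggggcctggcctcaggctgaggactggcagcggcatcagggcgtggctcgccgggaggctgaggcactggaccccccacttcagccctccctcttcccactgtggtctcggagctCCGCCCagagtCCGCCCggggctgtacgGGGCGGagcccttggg
Timd4, 244 bases, chr11:46701376-46701619, plus strand: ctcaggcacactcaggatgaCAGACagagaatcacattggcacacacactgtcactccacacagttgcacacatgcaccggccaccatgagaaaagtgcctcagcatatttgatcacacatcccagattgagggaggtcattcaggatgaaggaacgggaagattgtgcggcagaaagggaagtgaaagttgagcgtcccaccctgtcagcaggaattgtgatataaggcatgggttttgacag
The Mfge8 stretch was 64.8% G and C and held 3 GC boxes, which lay 38, 27 and 10 bases from its end. At least 1 GC box was present in 30.5% of 32544 RefSeq promoter stretches of that length. It held no SMAD box or TATA box, which were present in 40.0% and 11.8% of them. The Timd4 stretch held 1 SMAD box, 219 bases from its end, as did 41.4% of stretches of its length. It held no GC box (32.1%) and no TATA box (12.1%). The 79 bases of Axl, not printed, held 1 SMAD box, as did 15.8% of stretches of that length, and no GC box or TATA box. A match is a run of letters and says nothing on whether a factor binds there.

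Stab1 (chr14:30860970-30890598, minus strand), the large scavenger receptor stabilin-1, was among the strongest of the 10 transcripts and did not pass the test. It was at 2525, 2142 and 1991 CPM in control and 2524, 2073 and 2155 CPM in optimized libraries. Replicate 1 was the highest in both groups, and the ranges were nearly the same. The log2 fold change was 0.02, with an interval from -0.26 to 0.30 (edgeR adjusted p 0.93). Its exons overlap on the other strand with Nt5dc2 (113 bases) and with Gm52148 (387 bases, 2671 to 4165 counts per library).

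Megf10, on chromosome 18, was read 8, 12 and 12 times in control replicates and 20, 10 and 17 times in optimized replicates. Optimized replicate 2 lay within the control range, and the log2 fold change of 0.76 had an interval from -0.18 to 1.70 (edgeR adjusted p 0.22). A difference was not detectable at this depth. Elmo1 (chr13:20274428-20792523, plus strand) was at 103, 94.9 and 101 CPM in control and 112, 109.9 and 103 CPM in optimized libraries. Optimized replicate 3 fell within the control range, and the log2 fold change was 0.11, with an interval from -0.067 to 0.30 (edgeR adjusted p 0.34). A fold change as large as that of Axl or Mertk lay outside the interval of Elmo1.

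Compared per length, the genes spanned a wide range. In control cultures the order by mean FPKM was Gas6 at 387 ± 3.86, Stab1 at 278 ± 41.8, Pros1 at 44.5 ± 2.49, Axl at 37.6 ± 2.55, Mertk at 27.5 ± 1.72, Mfge8 at 18.4 ± 1.10, Elmo1 at 15.7 ± 0.758, Timd4 at 1.58 ± 0.244, Tyro3 at 0.178 ± 0.0660 and Megf10 at 0.0576 ± 0.00979. No gene overlapped its neighbour in this order over the 3 control libraries. The gene lengths behind the FPKM are not stated, and orders and ranks between genes, here and in optimized cultures, depend on them. By counts, Stab1 stood above Gas6 in every control library, so the first place of Gas6 rests on those lengths. Gas6 was the 126th and Stab1 the 197th of the 14618 tested genes by FPKM, while Megf10 was the 14392nd.

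In optimized cultures Stab1 came first at 257 ± 36.7 FPKM and Gas6 next at 218 ± 12.3, and their ranges overlapped. Axl followed at 59.2 ± 7.30 FPKM, above every value of Pros1 at 38.8 ± 3.07. Pros1 overlapped with Mertk at 38.6 ± 4.87, and Mertk with Mfge8 at 37.2 ± 6.90, so the order of these neighbours cannot be told from the spread. Elmo1 was at 15.5 ± 0.925, Tyro3 at 0.258 ± 0.0546, Timd4 at 0.111 ± 0.0106 and Megf10 at 0.0908 ± 0.0366 FPKM, the last pair overlapping. Axl moved from rank 1548 to rank 848 of all tested genes, Mfge8 from 3084 to 1372 and Timd4 from 10398 to 14148.

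**Figure D3:**
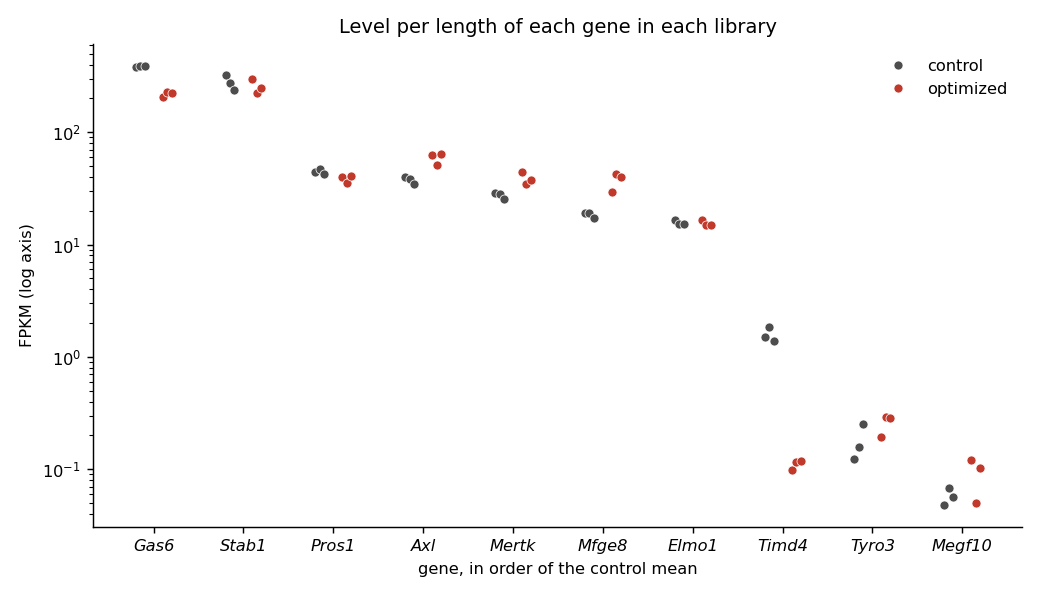
FPKM of the 10 genes (log y axis) in 3 control and 3 optimized libraries, ordered by the control mean, each point 1 library. Gas6 and Stab1 lie highest, 5 genes lie between 10 and 100 FPKM in every library, and Tyro3 and Megf10 stay below 1.

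Ratios within a library do not depend on how libraries are scaled. Their level depends on the gene lengths behind the FPKM, which are not stated, while a difference in log2 ratio between groups does not. In control replicate 1, Mertk had 4971 counts and Axl 4771, yet Mertk had the lower FPKM. The FPKM thus took Mertk as the longer gene, whereas its annotated exons cover 4808 bases and those of Axl 9180. Mertk was at 0.732 of Axl by FPKM in control and 0.653 in optimized cultures. The log2 ratios were -0.47, -0.44 and -0.44 in control and -0.52, -0.56 and -0.76 in optimized libraries, with no overlap. The difference of -0.16 gave p = 0.1 by exact permutation (two-sided), and 3 against 3 libraries cannot go lower. Without optimized replicate 3 it was -0.094. Mertk made up 42.1 ± 0.206% of summed Axl, Mertk and Tyro3 FPKM in control and 39.4 ± 2.05% in optimized cultures, a difference of -2.73 percentage points (exact permutation p = 0.1), or -1.57 without optimized replicate 3. The level of this share also depends on gene length, and the difference by share of counts was -2.84 percentage points. Pros1 was at 0.115 of Gas6 in control and 0.177 in optimized cultures. The log2 ratio of Pros1 to Gas6 was higher in every optimized library than in any control library, by 0.62 on average (exact permutation p = 0.1). The 3 ratios were 1 family, and the adjusted p of each is also 0.1, so none could pass 0.05 in this design.

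The genes nearest to Axl over the 6 libraries, by the root mean square distance of centred log2 CPM among 9811 genes, were Bcr at 0.035, Lpcat1 at 0.042 and Spire1 at 0.054. Those nearest to Mertk were Phf14 at 0.030, Cpeb1 at 0.030 and Wwc2 at 0.031. For Tyro3 the nearest genes, Fuom, Tm4sf1 and Dad1, were farther off at 0.20 to 0.21. These distances describe 6 libraries in 2 groups and carry no test.

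Among 89 other genes of the pathway, in 9 lists, 84 were tested, 22 were higher and 20 lower. These are 26.2% and 23.8% of those tested, against 14.7% and 15.2% of all genes, and their median log2 fold change was 0.10. The lists were chosen with earlier results of these data known, so the larger shares are no test of the pathway. The split depended on the scaling, with 16 higher and 25 lower with library size alone and 15 and 26 with limma on log2(FPKM + 1). Over all tested genes the same settings gave 1513 and 3168, and 1472 and 3267, so this shift was not particular to the pathway genes. Of 15 tested uptake receptors outside the 10 genes, 7 were higher and 6 lower, with a median of 0.67. The αv integrin chains that take MFG-E8 as a ligand rose with Mfge8 itself. Itgb5, the β5 chain, went from 278 ± 6.33 to 2383 ± 318 CPM, a log2 fold change of 3.10 (edgeR adjusted p 1.5e-07). Itgav went from 112 ± 8.72 to 269 ± 55.3 CPM (log2 1.26, adjusted p 9.1e-05) and Itgb3 from 12.6 ± 1.68 to 28.6 ± 3.76 CPM (log2 1.19, adjusted p 0.00011).

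Stab2, the close relative of Stab1 and likewise a phosphatidylserine receptor, fell from 5.02 ± 0.437 to 0.592 ± 0.146 CPM (log2 -3.07, edgeR adjusted p 1.1e-05). Stab2 and Timd4 thus fell while Stab1 did not pass the test. The scavenger receptor Cd36 went from 394 ± 14.7 to 152 ± 6.60 CPM (log2 -1.38, adjusted p 1.6e-06), and Cd14 from 614 ± 36.1 to 242 ± 36.7 CPM (log2 -1.35, adjusted p 2.2e-05). The lipid receptor Trem2 was higher by 0.73 on the log2 scale (adjusted p 0.013), and Lrp1 by 0.67 (adjusted p 0.039) with groups that overlapped. The call of Trem2 was lost without control 1 or control 2 and on log2(FPKM + 1). That of Lrp1 was lost in 7 of 15 alternatives: without control 2, control 3 or optimized 3, with library size alone and with all 3 versions of limma on FPKM. Without optimized 1, Lrp1 kept its call at a log2 fold change of 0.39.

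**Figure D4:**
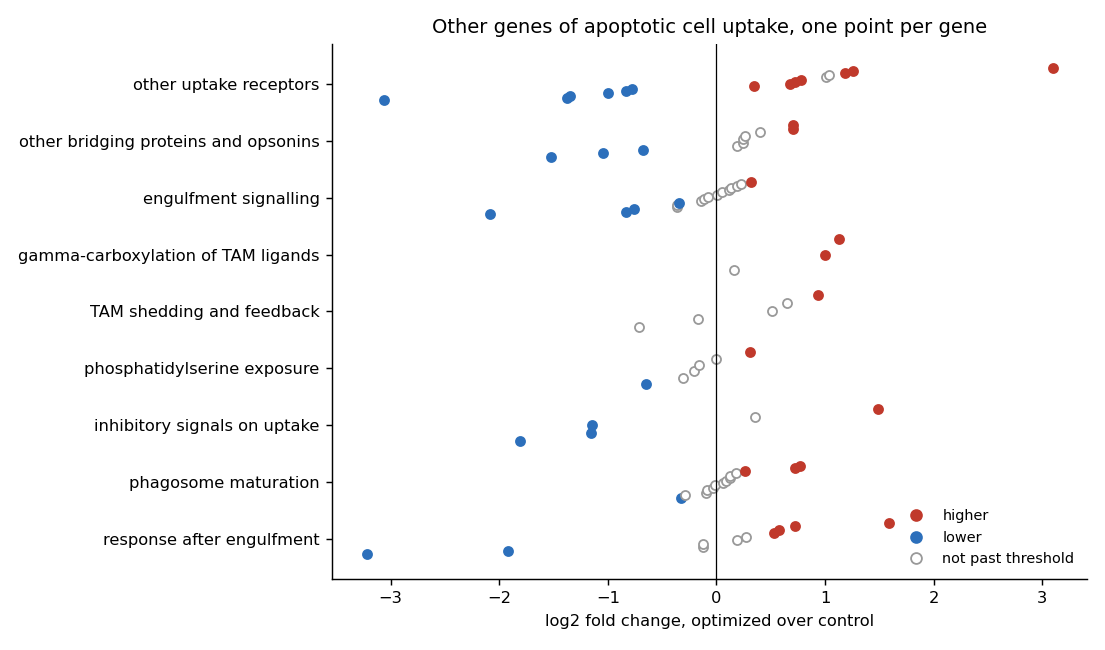
Log2 fold change, optimized over control (x axis), of the 84 tested genes in 9 pathway lists (y axis), each point 1 gene, red where called higher, blue where called lower and open where not called. Itgb5 lies farthest right at 3.10 and Pparg farthest left at -3.22.

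Of 10 other bridging proteins and opsonins, 2 (20.0%) were higher and 3 (30.0%) lower, with a median of 0.24. Over all tested genes these shares were 14.7% and 15.2%. Thbs1, a bridge to Cd36 and αv integrins, rose by 0.71 and Calr, an eat-me protein, by 0.70 on the log2 scale (adjusted p 0.0029 and 0.0030). Anxa1, a phosphatidylserine-binding protein, fell from 131 ± 4.74 to 45.3 ± 3.42 CPM (log2 -1.53, adjusted p 1.3e-06), and Lgals3 fell by 1.04 on the log2 scale (adjusted p 0.00039). The complement subunits C1qa, C1qb and C1qc had log2 fold changes of 0.40, 0.19 and 0.24 with overlapping groups, and none passed the test over all 6 libraries. Without optimized replicate 1 they were at 0.61, 0.38 and 0.46, and all 3 passed (edgeR adjusted p 0.00061, 0.017 and 0.0064), so this result rests on that library.

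Of the 3 genes for the gamma-carboxylation that GAS6 and protein S need in order to bind phosphatidylserine, 2 rose. Over all tested genes, 14.7% were called higher. Ggcx, the carboxylase, went from 10.9 ± 0.108 to 21.9 ± 0.790 CPM (log2 1.00, edgeR adjusted p 3.5e-05). Vkorc1, which recycles vitamin K, went from 18.0 ± 3.05 to 39.5 ± 11.0 CPM (log2 1.13, adjusted p 0.0019), and Vkorc1l1 was at 0.16 (adjusted p 0.23). Among 5 tested genes for the shedding of TAM receptors and their feedback, only Adam10 passed the test in the fit of all 6 libraries with TMM scaling, from 144 ± 7.90 to 275 ± 16.1 CPM (log2 0.94, adjusted p 2.5e-05). Adam17, the other sheddase in the list, had a log2 fold change of -0.17 (adjusted p 0.13), and passed as lower with library size alone (-0.30, adjusted p 0.036) and with limma on FPKM. The feedback gene Socs3 was at 0.51 (adjusted p 0.056), and passed with DESeq2, with no filter on low counts, with the replicate block and without optimized replicate 1 (0.70, adjusted p 0.00015). Timp3, which encodes a sheddase inhibitor, passed without optimized replicate 1 (0.77) or optimized replicate 2 (0.88), and Socs1 passed as lower on log2(FPKM + 1) and log2(FPKM + 0.1).

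Downstream of the receptors, 1 of 16 tested engulfment signalling genes was higher and 4 were lower, with a median of -0.096. Vav3, a guanine nucleotide exchange factor, fell from 41.2 ± 3.91 to 9.75 ± 1.28 CPM (log2 -2.08, edgeR adjusted p 1.6e-06). Rac2, the GTPase of blood cells, fell by 0.84 and Ptk2 by 0.76 on the log2 scale (adjusted p 0.00052 and 0.0021). Elmo2, the relative of Elmo1, was higher by 0.32 (adjusted p 0.018), a call lost in 7 of 15 alternatives, when control 1, control 3 or optimized 3 was left out, with library size alone (0.19) and with all 3 versions of limma on FPKM. Of 14 phagosome maturation genes, 3 (21.4%) were higher and 1 (7.14%) lower, with a median of 0.073. Those called higher included the lysosomal nuclease Dnase2a at 0.77 and the protease Lgmn at 0.72 (adjusted p 0.00066 and 0.0021). The gene called lower was Uvrag, of the complex that directs vesicle maturation, at -0.32 (adjusted p 0.014), a call lost without control replicate 1.

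Of 5 tested genes that restrain uptake, 3 were lower and 1 higher, with a median of -1.15. Over all tested genes, 15.2% were called lower and 14.7% higher. Cd47, the don't-eat-me signal, fell from 152 ± 10.3 to 67.9 ± 3.45 CPM, and its receptor Sirpa from 3782 ± 47.4 to 1707 ± 37.7 CPM, with log2 fold changes of -1.16 and -1.15 (edgeR adjusted p 6.9e-06 and 1.4e-05). Pilra, an inhibitory receptor, fell by 1.81, while Cd24a rose from 4.67 ± 0.489 to 13.1 ± 1.59 CPM (log2 1.49, adjusted p 4.1e-05). Of 6 genes of phosphatidylserine exposure, 1 was higher and 1 lower (16.7% each, near the shares of all genes), with a median of -0.18. The flippase Atp8a1 was at -0.65 (adjusted p 0.0073) and its partner subunit Tmem30a at 0.31 (adjusted p 0.016), the latter call lost in the same 7 alternatives as that of Elmo2.

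Of 10 genes known to respond to an engulfed load of lipid, 4 (40.0%) were higher and 2 (20.0%) lower, with a median of 0.23. Over all tested genes these shares were 14.7% and 15.2%. The nuclear receptors that passed the test moved apart. Nr1h2, at means of 86.0 and 78.9 CPM, and Rxra did not pass in the fit of all 6 libraries. Their log2 fold changes were -0.12 and 0.19 (edgeR adjusted p 0.45 and 0.14). Pparg fell from 12.3 ± 0.748 to 1.30 ± 0.326 CPM (log2 -3.22, edgeR adjusted p 1.3e-06) and Nr1h3, which encodes LXRα, from 10.3 ± 1.22 to 2.70 ± 0.444 CPM (log2 -1.92, adjusted p 2.3e-05), whereas Ppard rose from 28.6 ± 2.23 to 47.2 ± 3.25 CPM (log2 0.72, adjusted p 0.00033). Ucp2, a mitochondrial carrier, rose from 539 ± 41.4 to 1629 ± 250 CPM (log2 1.59, adjusted p 1.2e-05). The cholesterol exporter Abca1, a target of LXRα, had a log2 fold change of -0.12 with overlapping groups (adjusted p 0.59). Without optimized replicate 1 it was at -0.29 (adjusted p 0.042).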

How the data were processed

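Total RNA of 3 control and 3 optimized microglia cultures was sequenced as paired ends. The authors used HISAT2 for mapping (build mm39) and featureCounts for the counts per gene. Versions, annotation and the strand setting are not given in the sources used here. The deposited tables hold raw counts and FPKM for 41079 genes, and the FPKM were deposited by the authors with no account of their calculation. Every FPKM equalled the count over 1 gene constant and 1 library constant to within 5.6e-07%, for 9963 genes with at least 100 counts in every library.

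Counts were fitted with edgeR 4.0.16 in R 4.3.3 (TMM factors of 0.898 to 1.07, filterByExpr, quasi-likelihood test, Benjamini-Hochberg adjustment over 14618 genes, threshold 0.05), which was tested on simulated data. The simulation gave all genes the same spread and all changed genes a change of the same size, larger than those of Axl, Mertk and Gas6. It thus does not show how well changes as small as theirs are found. CPM use TMM-scaled totals, and the coefficient of variation between replicates was 0.128. Alternatives used DESeq2 1.42.0, limma 3.58.1 on log2(FPKM + 1) or log2(FPKM + 0.1), other scalings and filters, a replicate block and each library left out. Ratios were compared by exact permutation. The members and the gene lists were chosen with earlier results of these data known. From each pathway list up to 4 called genes were named, the 2 highest and the 2 lowest log2 fold changes, with others where needed to describe the list. No pair of replicates agreed within sampling noise (chi-square per degree of freedom 10.0 to 71.3). Sequences come from GRCm39, the build of mm39, with exons of GENCODE M39 and starts of the RefSeq promoter table.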

Additional observations from a re-analysis of the deposited data

How the results depend on the processing

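Axl, Mertk and Mfge8 were called higher, and Gas6 lower, in each of 15 alternatives, with largest adjusted p-values of 0.0033, 0.011, 0.0033 and 0.0053. Timd4 was lower in all 13 alternatives that tested it, and its largest adjusted p was 0.00019. It was removed by the filter of at least 10 counts in every library and by that of a mean FPKM of at least 1, so that 1 member was lower under each in place of 2. The log2 fold change of Timd4 shrank to -1.21 on log2(FPKM + 1). Stab1 changed sign with library size alone (-0.10), with no filter on low counts (-0.00071) and with limma on FPKM (-0.12 in each of 3 versions), and ran from -0.069 to 0.12 with 1 library left out. Elmo1 was at -0.013 with library size alone, at -0.024 on log2(FPKM + 1) with or without the FPKM filter, and at -0.025 on log2(FPKM + 0.1). Neither passed the test in any alternative. Library size alone moved the median of all tested genes to -0.12 and the calls from 2142 higher and 2218 lower to 1513 and 3168. limma on FPKM gave 1472 and 3267, 1486 and 3262, or 1176 and 2962. Of the 42 called pathway genes, 32 kept their call in every alternative that tested them, and 10 lost it in some. Among the 10 were Lrp1, Trem2, Elmo2, Tmem30a and Uvrag, described above. The rest were Lamp2 (lost in 10 of 15 alternatives), Scarb1 (9 of 15), Megf11 (7 of 14), Dock1 (5 of 15) and Scarf1 (2 of 14). With 1 library left out the differences ran from -0.21 to -0.094 for the Mertk to Axl log2 ratio, from 0.55 to 0.72 for Pros1 to Gas6 and from -3.50 to -1.57 percentage points for the share of Mertk.

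Same-numbered libraries deviated from their group means with correlations of 0.40, -0.034 and 0.24, and control 3 correlated more with optimized 2 (0.34). Deviations from means of 3 libraries cannot settle whether same-numbered cultures share a preparation. With the replicate as a block, 3 members were higher and 2 lower, as without it. The calls over all genes were 2401 higher and 2523 lower with the block, and 2142 and 2218 without it. Members under 50 counts in every library, Tyro3 and Megf10, are limited by depth.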
